A study of Rattus norvegicus with 12 samples.

Results

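The 6 genes examined here, Ebf1, Pax5, Igll1, Rag1, Cd79a and Cd79b, mark precursors of B lymphocytes, and they were chosen by name with their probes taken from the platform table of the array. Of these 6 genes, 4 had a probe linked to them alone, 1 probe each, and all 4 were bright enough to be tested: Ebf1, Igll1, Rag1 and Cd79b. Pax5 and Cd79a had no such probe and were not analysed here. The whole array gave 14497 named genes with a probe, of which 8698 were tested. The livers came from fetuses of Sprague Dawley rats taken on gestational day 19, with term at day 21. Fetuses with restricted growth came from dams fasted for 48 hr from day 17, and their controls from dams fed ad libitum. From each diet, total RNA of the liver and RNA of its polysomes, the fraction of mRNA carried by several ribosomes, were put on 3 arrays each. This gave 12 arrays in 4 groups: fasted total, fed total, fasted polysome and fed polysome, each with 3 arrays that the labels call biological replicates, from 3 dams per diet. Whole liver was used, so the values average hepatocytes and every blood-forming cell in it. The polysome RNA was drawn from pooled preparations of the gradient.

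The fetal liver is the main site of blood formation before birth, and B lymphocytes arise there before the bone marrow takes over. A progenitor that receives interleukin 7 switches on Ebf1 and then Pax5, the transcription factors that specify and commit the B lineage. Rag1 and Rag2 then cut the immunoglobulin heavy chain locus, and a rearranged heavy chain reaches the cell surface with the surrogate light chain (Igll1 and Vpreb1) and the signalling pair Cd79a and Cd79b.

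Early B lineage genes read their promoters through short motifs bound by Ebf1, by E proteins such as Tcf3 and by Ikaros (Ikzf1). The RefSeq promoter windows of 3 of the tested genes, Ebf1, Igll1 and Rag1, are printed. A link between their motifs and the values on the arrays was not tested. Each window runs from 250 bases before the start given by RefSeq to 50 bases after it, on build GRCr8, and capitals mark E boxes and Ikaros cores on either strand. The E boxes searched were CAGCTG and, as the second form, CAGGTG (or its complement on the other strand), and the Ikaros core was TGGGAA (likewise on both strands).
Ebf1 (chr10:29601671-29601970, plus strand): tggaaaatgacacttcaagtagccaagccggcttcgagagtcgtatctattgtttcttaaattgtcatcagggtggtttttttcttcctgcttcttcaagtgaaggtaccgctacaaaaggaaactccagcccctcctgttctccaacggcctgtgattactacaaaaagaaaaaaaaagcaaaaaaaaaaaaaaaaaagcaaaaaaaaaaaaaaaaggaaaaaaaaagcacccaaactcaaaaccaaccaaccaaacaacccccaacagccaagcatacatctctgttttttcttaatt
Igll1 (chr11:97642937-97643236, plus strand): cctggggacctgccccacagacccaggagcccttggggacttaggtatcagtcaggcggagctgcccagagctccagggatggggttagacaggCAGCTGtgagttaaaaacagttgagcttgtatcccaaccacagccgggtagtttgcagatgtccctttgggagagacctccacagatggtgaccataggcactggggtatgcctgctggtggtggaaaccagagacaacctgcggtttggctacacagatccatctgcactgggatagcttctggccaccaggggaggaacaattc
Rag1 (chr3:108383135-108383434, minus strand): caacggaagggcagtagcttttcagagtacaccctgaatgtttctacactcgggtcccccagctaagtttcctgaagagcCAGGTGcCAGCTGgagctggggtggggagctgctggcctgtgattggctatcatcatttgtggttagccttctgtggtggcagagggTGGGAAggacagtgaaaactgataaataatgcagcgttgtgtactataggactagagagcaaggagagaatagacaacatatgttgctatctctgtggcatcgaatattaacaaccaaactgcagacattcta
Positions below count from the start used by the promoter table, which lies 4700 bases inside the gene for Ebf1 and 128 bases inside it for Igll1 as the RefSeq gene table places them, and at the start of the gene in that table for Rag1. The Igll1 window held 1 CAGCTG, an E box, starting 156 bases before the start. The Rag1 window held CAGGTG at 170 and CAGCTG at 163 bases before the start, side by side, and the Ikaros core TGGGAA at 83 bases before it. The Ebf1 window held none of these motifs, and none of the 3 windows held the palindrome bound by Ebf1, which is TCCC followed 2 bases later by GGGA. Among 33469 rat promoter windows of that length, CAGCTG was found in 15.1%, CAGGTG in 18.8%, TGGGAA in 25.7% and the Ebf1 palindrome in 0.834%, counting both strands. A match describes letters in the window and is no evidence of binding. The promoter table holds no entry for Cd79b.

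Values are the deposited RMA intensities, given here as log2(intensity + 1). RMA corrects the background of each array, makes the distributions of all arrays equal and summarises the probes of a gene. Medians of the 12 arrays lay between 101.3 and 108.3 intensity units. Over all 28826 probes, arrays of one group correlated at 0.991 to 0.996. Arrays of the same fraction in the other diet correlated at 0.992 to 0.995, and arrays of the other fraction at 0.982 to 0.988. Differences were tested with limma on all 12 arrays, with p-values adjusted by Benjamini-Hochberg over the 8698 genes and called below 0.05. Of the 12 arrays left out one at a time, fed polysome array 1 and fasted polysome array 2 were those that raised the number of genes called for fasting in each fraction. Without this pair, calls over all genes were 274 for fasting in total RNA and 1346 in polysome RNA, against 141 and 318 with all arrays. Each array of the pair raised these counts when left out alone, so the rise is no separate finding. The calls of the B precursor genes stayed the same without the pair. Rag1 could not be tested without them, since it then fell under the filter. The 3 arrays of a group limit the precision: the standard error of a difference was 0.18 log2 units for Ebf1, 0.16 for Rag1, 0.14 for Igll1 and 0.11 for Cd79b, against a median of 0.09 over all tested genes.

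Fasting of the dam left no B precursor gene past the threshold in either RNA fraction. In total RNA the differences of Ebf1, Igll1, Rag1 and Cd79b were all below 0, at -0.30 to -0.08 log2 units with a median of -0.17, whereas the median of all tested genes was 0.0011. In polysome RNA all 4 were above 0, at 0.09 to 0.23 with a median of 0.13, against 0.02 over all genes. None of these 8 differences passed the test, where 1.62% of all genes did in total RNA and 3.66% in polysome RNA. In whole liver, the number of B precursors and the RNA per precursor cannot be told apart.

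**Figure D1:**
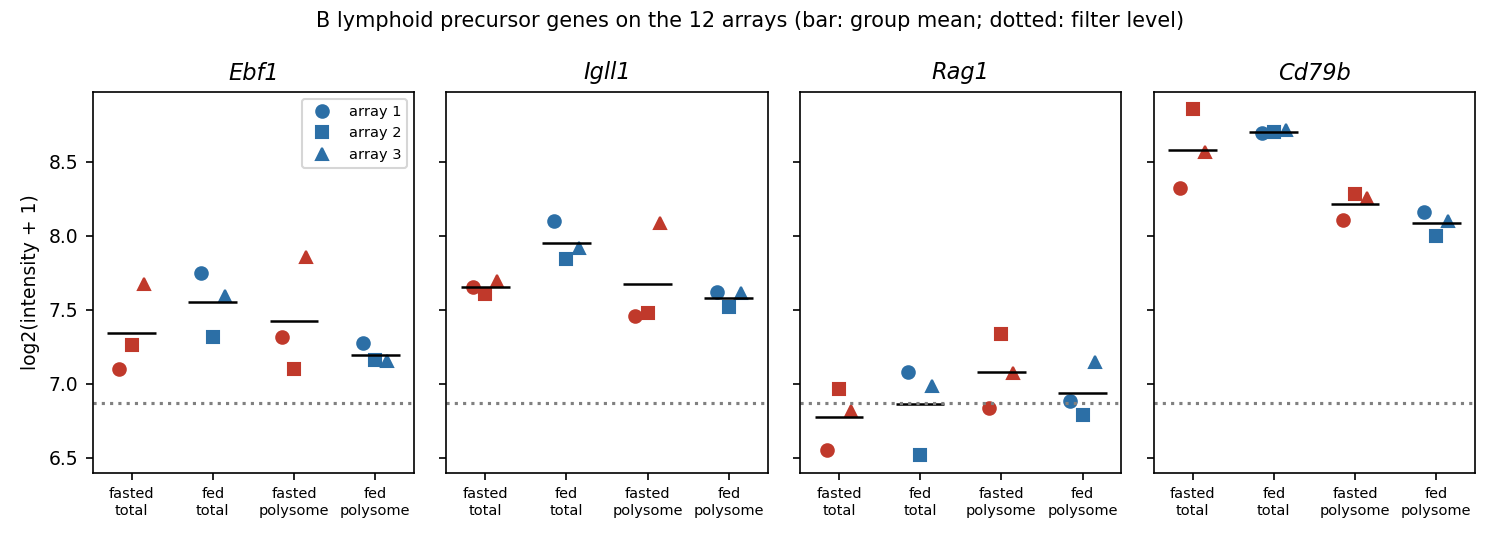
Level of each tested B precursor gene as log2(intensity + 1) on every array, with fasted groups left of fed groups, total RNA left of polysome RNA, symbols for the array number and a bar at the group mean. Cd79b lies lower on the polysome arrays of either diet, and the fasted polysome array 3 is the highest array for Ebf1 and the highest polysome array for Igll1.

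Ebf1, the factor that opens the B lineage programme, read 7.10, 7.26 and 7.68 log2 units on the fasted total arrays, against 7.75, 7.32 and 7.59 on the fed total arrays. The fasted arrays 1 and 2 lay below every fed array, and array 3 lay inside the fed range. The group means were 7.34 ± 0.30 in fasted and 7.55 ± 0.22 in fed total RNA (SD, n = 3 each), a difference of -0.21 ± 0.18 (SE; limma adjusted p = 0.604; 95% interval -0.60 to 0.18). On polysomes Ebf1 read 7.32, 7.10 and 7.86 in fasted livers, against 7.27, 7.16 and 7.15 in fed livers. The single high value, fasted array 3, gave this group the widest spread of any group for the 4 genes (SD 0.39), while the fed polysome arrays were tight (SD 0.07). The difference was 0.23 ± 0.18 (SE; limma adjusted p = 0.483; 95% interval -0.16 to 0.62), and it was 0.01 without fasted polysome array 3.

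Igll1 codes for the lambda 5 part of the surrogate light chain and is made by pro-B and pre-B cells. Its total RNA values were 7.65, 7.61 and 7.70 log2 units in fasted livers, against 8.10, 7.84 and 7.92 in fed livers. Every fasted value was below every fed one, which was also true, in one direction or the other, of 26.2% of all tested genes in this comparison. The fasted mean was 7.65 ± 0.04 and the fed mean 7.95 ± 0.13 (SD, n = 3 each), a 1.23-fold lower level in fasted livers. The difference of -0.30 ± 0.14 (SE) had an unadjusted limma p of 0.0455 and an adjusted p of 0.277, and did not pass. On polysomes Igll1 read 7.46, 7.48 and 8.09 in fasted livers, against 7.62, 7.52 and 7.61 in fed livers. The groups overlapped, with fasted arrays 1 and 2 below all fed arrays and array 3 above them. The polysome difference of 0.09 ± 0.14 (SE; limma adjusted p = 0.724) rested on that array and was -0.11 without it.

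Cd79b, the signalling chain that carries both the pre-B receptor and the B cell receptor, read 8.33, 8.86 and 8.56 log2 units in fasted total RNA, against 8.70, 8.70 and 8.72 in fed total RNA. The fed arrays were nearly identical (SD 0.01), and the fasted arrays lay on both sides of them (SD 0.27). The difference was -0.12 ± 0.11 (SE; limma adjusted p = 0.610; 95% interval -0.36 to 0.11), and 0.0048 without fasted total array 1. On polysomes Cd79b read 8.11, 8.28 and 8.25 in fasted livers, against 8.16, 8.0 and 8.10 in fed livers, and the groups overlapped. That difference was 0.13 ± 0.11 (SE; limma adjusted p = 0.527; 95% interval -0.11 to 0.36).

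Rag1, the recombinase subunit that cuts immunoglobulin gene segments, was the dimmest of the tested genes, with a mean over the 12 arrays only 0.04 log2 units above the filter level of 6.87. It read 6.55, 6.97 and 6.82 in fasted total RNA, against 7.08, 6.52 and 6.99 in fed total RNA, and 6.84, 7.34 and 7.07 in fasted polysome RNA, against 6.88, 6.79 and 7.14 in fed polysome RNA. Fasted and fed arrays overlapped in both fractions. The fasting difference was -0.08 ± 0.16 (SE; limma adjusted p = 0.845; 95% interval -0.44 to 0.27) in total RNA and 0.14 ± 0.16 (SE; limma adjusted p = 0.642; 95% interval -0.21 to 0.50) in polysome RNA.

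Since the sign of the differences was opposite in the 2 fractions, the change in the fasting effect from total to polysome RNA was tested directly. The polysome effect was above the total effect for all 4 genes, by 0.44 ± 0.26 (SE) log2 units for Ebf1, 0.39 ± 0.19 for Igll1, 0.25 ± 0.15 for Cd79b and 0.23 ± 0.23 for Rag1. None passed, with limma adjusted p from 0.799 to 0.883 and 95% intervals that all held 0. Of all 8698 genes, 0% passed this test, although 500 had an unadjusted p below 0.05, and the smallest adjusted p of any gene was 0.799. The 4 genes share the same 12 arrays, so their common direction is not 4 separate observations.

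**Figure D2:**
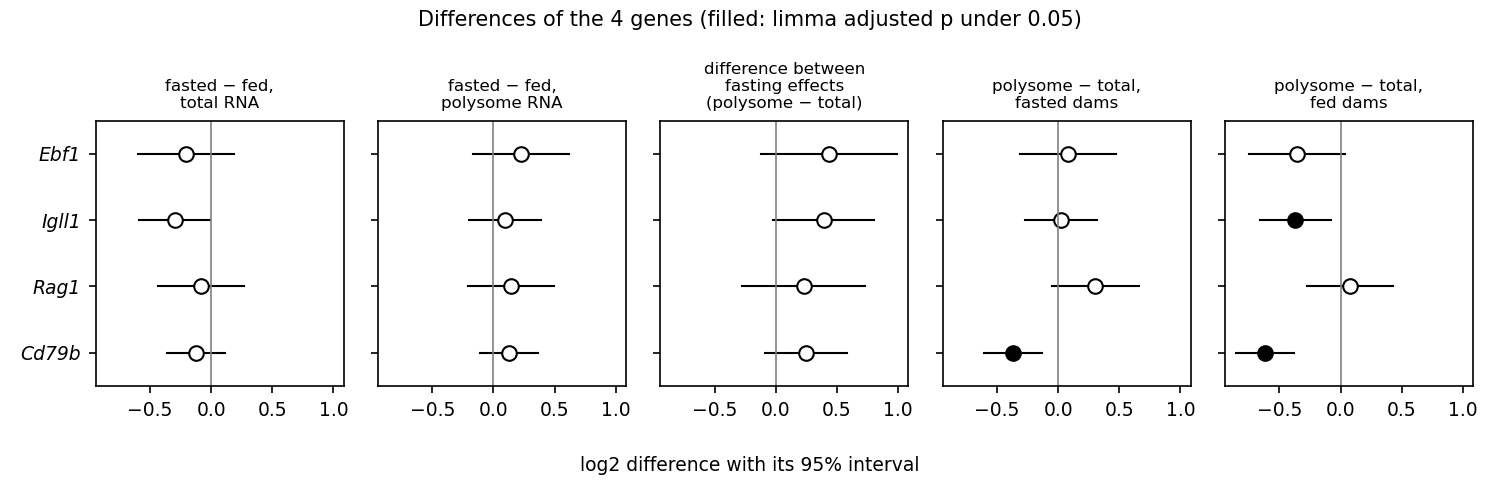
Log2 difference of each tested B precursor gene, with its 95% interval, in the 5 comparisons, with filled points for limma adjusted p below 0.05. Filled points are Cd79b in both polysome comparisons and Igll1 in fed dams.

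Against total RNA, the polysome fraction held less Cd79b signal in both diets and less Igll1 signal in fed dams. Equal amounts of RNA went on each array, so such a difference is in the share a transcript takes of its fraction. The 2 fractions were also extracted by different methods, which cannot be told apart from the fraction itself. In fasted dams 49.7% of all tested genes differed between the fractions (29.5% higher and 20.2% lower on polysomes), and in fed dams 49.9% did (28% higher and 21.8% lower), so a call in this comparison is common.

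Cd79b was 8.11, 8.28 and 8.25 on the fasted polysome arrays, against 8.33, 8.86 and 8.56 on the fasted total arrays, which do not overlap. It was 1.29-fold lower on polysomes, a difference of -0.37 ± 0.11 (SE; limma adjusted p = 0.0131). In fed dams the polysome arrays lay between 8.0 and 8.16, and the total arrays between 8.70 and 8.72, a 1.53-fold lower level at -0.62 ± 0.11 (SE; limma adjusted p = 4.75e-04). Arrays of one diet and number were taken as one liver, which is an inference from the data and not given by the labels. Since the groups do not overlap, Cd79b is lower on the polysome array in all 6 livers under any pairing. The gap was 0.22, 0.57 and 0.31 in fasted livers 1 to 3 and 0.53, 0.70 and 0.61 in fed livers 1 to 3. The call in fasted dams was lost without fasted polysome array 1 (limma adjusted p = 0.0544) or without fasted total array 2, where the difference was -0.23 (limma adjusted p = 0.0588).

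Igll1 in fed dams was 7.62, 7.52 and 7.61 on polysomes, against 8.10, 7.84 and 7.92 in total RNA, without overlap. The difference of -0.37 ± 0.14 (SE) was 1.29-fold and passed narrowly (limma adjusted p = 0.0370). It did not pass without fed polysome array 1, 2 or 3 or without fed total array 1 or 3 (limma adjusted p from 0.0583 to 0.131), nor with no filter (0.0573) or with each array centred on its median (0.0625). In fasted dams the Igll1 difference was 0.02 ± 0.14 (SE; limma adjusted p = 0.904), with polysome arrays 1 and 2 below their total arrays and array 3 above its own, and it was -0.18 (limma adjusted p = 0.108) without polysome array 3.

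Ebf1 on the fed polysome arrays, at 7.15 to 7.27, lay below all fed total arrays, at 7.32 to 7.75, but its difference of -0.36 ± 0.18 (SE) did not pass (limma adjusted p = 0.120; 95% interval -0.75 to 0.04). It passed when the fit held only the arrays compared (limma adjusted p = 0.0267). In fasted dams the Ebf1 difference was 0.08 ± 0.18 (SE; limma adjusted p = 0.739), and -0.14 without polysome array 3. Rag1 differed by 0.30 ± 0.16 (SE; limma adjusted p = 0.142; 95% interval -0.05 to 0.66) in fasted dams and by 0.08 ± 0.16 (SE; limma adjusted p = 0.722) in fed dams. Its values were higher on the polysome array in 5 of 6 livers, fed liver 1 being the exception. The Rag1 total means, 6.78 in fasted and 6.86 in fed dams, lay under the filter level of 6.87. Rag1 was thus tested only through its polysome arrays, so this direction is no separate finding.

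The genes that work beside these 4 were taken from lists of B lineage transcription factors, pre-B receptor and recombination genes, B cell surface genes and lymphoid progenitor receptors. With Ebf1, Igll1, Rag1 and Cd79b counted in, these hold 59 genes, of which 49 had a probe and 34 were tested. None of the 34 passed for fasting in total RNA or in polysome RNA, where 1.62% and 3.66% of all genes did. The groups did not overlap for 6 of the 34 in total RNA, 4 lower and 2 higher in fasted livers, beside 26.2% of all genes. They did not overlap for 7 of the 34 in polysome RNA, 2 lower and 5 higher in fasted livers, beside 22.5% of all genes. Vpreb1, Vpreb2 and Rag2 had no probe linked to them alone and were not analysed here. Dntt, which adds bases at immunoglobulin gene joins, read 4.37 to 4.79 on all 12 arrays, and Vpreb3 6.03 to 6.60, both under the filter level.

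**Figure D3:**
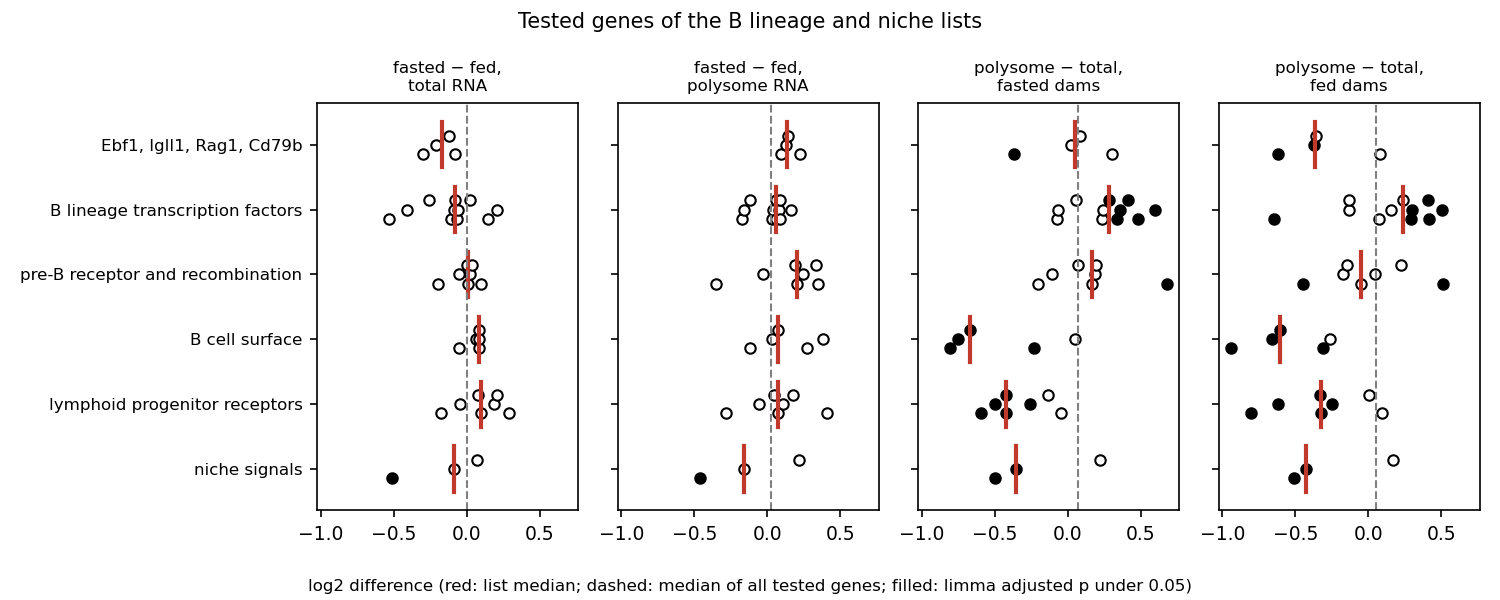
Log2 difference of every tested gene of the B lineage and niche lists in the fasting and the fraction comparisons, with a red line at the list median, a dashed line at the median of all tested genes and filled points for limma adjusted p below 0.05. In the fasting panels Kitlg is the filled point; in the fraction panels the surface genes and receptors lie mainly below 0 and the transcription factors mainly above it.

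Of the transcription factors, 0 of 11 passed for fasting, beside 1.62% of all genes in total and 3.66% in polysome RNA. The 2 factors with the largest differences in total RNA were Lef1 and Pou2af1, which are singled out after their values were seen. Lef1, a factor of pro-B and pre-B cell proliferation, read 7.20, 7.23 and 7.51 in fasted total RNA, against 7.99, 7.66 and 7.89 in fed total RNA. The groups did not overlap, and the difference of -0.53 ± 0.15 (SE) missed the threshold (limma adjusted p = 0.0947). Over 25 other settings the adjusted p ran from 0.0448, the one that passed, to 0.275. Pou2af1, the B cell coactivator of octamer promoters, read 7.22, 7.29 and 7.44 in fasted total RNA, against 7.96, 7.53 and 7.69 in fed total RNA, a difference of -0.41 ± 0.15 (SE; limma adjusted p = 0.170). On polysomes the fasting difference was 0.08 ± 0.15 for Lef1 and 0.17 ± 0.15 for Pou2af1 (SE; limma adjusted p = 0.793 and 0.538). Tcf3, the E protein partner of Ebf1, and Ikzf1, which codes for Ikaros, had fasting differences of -0.10 ± 0.09 and -0.08 ± 0.11 in total RNA (SE; limma adjusted p = 0.586 and 0.760).

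Between the fractions the tested factors mostly ran opposite to Cd79b. Of 17 listed, 16 had a probe and 11 were tested, with Ikzf3, Spib, Bach2, Pou2f2 and Irf4 under the filter. Which cells of the whole liver carried the RNA of these factors was not tested. In fasted dams 6 of 11 were higher on polysomes and 0 lower, and in fed dams 5 were higher and 1 lower. Over all genes 29.5% were higher and 20.2% lower in fasted dams, and 28% and 21.8% in fed dams. The list medians were 0.29 log2 units in fasted and 0.24 in fed dams, against 0.07 and 0.05 over all genes. Bcl11a, a factor needed for B lineage progenitors, was higher by 0.60 ± 0.10 in fasted and by 0.50 ± 0.10 in fed dams (SE; limma adjusted p = 3.37e-04 and 0.00117). Runx1, Sox4 and Tcf3 were also higher in both diets, Spi1 and Lef1 in fasted dams and Foxo1 in fed dams. The Lef1 difference of 0.48 ± 0.15 (SE; limma adjusted p = 0.0197) was 0.27 and not called without fasted polysome array 3 (limma adjusted p = 0.0893), and its call was also lost without fasted total array 1 or 2. Tcf3 was higher by 0.29 ± 0.09 in fasted and by 0.30 ± 0.09 in fed dams (SE; limma adjusted p = 0.0162 and 0.0124), with the call lost in 3 and 2 fits that left out 1 array. Ikzf1 differed by 0.24 ± 0.11 in fasted and by 0.07 ± 0.11 in fed dams (SE; limma adjusted p = 0.0781 and 0.589). In fasted dams it passed with the liver as a replicate block (limma adjusted p = 0.0439) and in 5 of the other settings. Pou2af1 was the one factor lower, by -0.65 ± 0.15 in fed dams (SE; limma adjusted p = 0.00263).

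The tested surface genes mainly ran with Cd79b. Of 14 listed, 11 had a probe and 5 were tested, the others with a probe lying under the filter. Among those left out, Ms4a1 read 4.17 to 4.69 and Cr2 4.48 to 5.10 on the 12 arrays. Of the 5 tested, Cxcr5, Cd37, Cd74 and Cd22 were lower on polysomes in each diet. Over all genes 20.2% were lower in fasted and 21.8% in fed dams. The list medians were -0.67 in fasted and -0.61 in fed dams. Cxcr5, the receptor that guides B cells to follicles, was lower by -0.75 ± 0.10 in fasted and by -0.94 ± 0.10 in fed dams (SE; limma adjusted p = 3.99e-05 and 8.13e-06). All Cxcr5 polysome values, 6.58 to 6.72 in fasted and 6.21 to 6.56 in fed dams, lay under the filter level of 6.87. Cxcr5 was thus tested only through its total arrays, which favours a lower polysome level among the genes kept. Cd74, the invariant chain, is also made by macrophages. Its difference in fed dams was -0.61 ± 0.21 (SE; limma adjusted p = 0.0297), against -0.37 without fed total array 1 (limma adjusted p = 0.142), and the call was also lost without fed polysome array 2 or 3. The Cd22 call in fasted dams, at -0.23 ± 0.08 (SE; limma adjusted p = 0.0325), was lost in 8 of 25 other settings, with adjusted p up to 0.134. The exception, Cd24, a surface glycoprotein of pro-B and pre-B cells, is singled out after its values were seen. Its fasting difference of 0.38 ± 0.12 on polysomes did not pass (SE, limma adjusted p = 0.0893). Cxcr4 and Plcg2, from the other lists, went the other way there, by -0.28 ± 0.08 and -0.35 ± 0.10. They did not pass either (SE, limma adjusted p = 0.0709 and 0.0751).

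Of 7 tested progenitor receptors, Il7r, Ptprc, Flt3, Cxcr4 and Kit were lower on polysomes in each diet. Over all genes 20.2% were lower in fasted dams and 21.8% in fed dams. The Kit call in fed dams, at -0.25 ± 0.09 (SE; limma adjusted p = 0.0397), was lost in 9 of 25 other settings, and the difference was -0.16 without fed polysome array 1 (limma adjusted p = 0.157). The Flt3 call in fasted dams was lost without fasted polysome array 3 or fasted total array 1 or 2. On the fed polysome arrays Flt3 read 6.77 to 6.82 and Il7r had a mean of 6.76, under the filter level of 6.87. Il7r, through which interleukin 7 drives pro-B cells, was lower by -0.60 ± 0.15 in fasted and by -0.80 ± 0.15 in fed dams (SE; limma adjusted p = 0.00446 and 6.25e-04). For fasting, Il7r read 7.15, 6.95 and 7.41 on polysomes of fasted livers, against 6.59, 6.88 and 6.81 in fed livers. Those groups did not overlap, but the difference of 0.41 ± 0.15 (SE) did not pass (limma adjusted p = 0.122), nor did that of 0.21 ± 0.15 in total RNA (limma adjusted p = 0.510).

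Of 7 tested genes of the pre-B receptor and recombination list, 0 passed for fasting. The shares over all genes were 1.62% in total and 3.66% in polysome RNA. Between the fractions Pik3ap1, an adaptor of B cell receptor signalling, was higher on polysomes by 0.68 ± 0.10 in fasted and by 0.51 ± 0.10 in fed dams (SE; limma adjusted p = 1.32e-04 and 0.00109). Lyn, a kinase that acts on Cd79a and Cd79b, was lower on polysomes in fed dams, by -0.45 ± 0.12 (SE; limma adjusted p = 0.00922). Blnk, the adaptor downstream of the pre-B receptor, read 7.27, 6.85 and 7.49 on polysomes of fasted livers, against 6.86, 6.84 and 6.88 in fed livers. Its difference of 0.34 ± 0.12 (SE) missed the threshold (limma adjusted p = 0.114). Without fasted polysome array 2, the low one of the fasted group, it was 0.52 and passed (limma adjusted p = 0.00805), and without fasted polysome array 3, the high one, it was 0.20 (limma adjusted p = 0.345).

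Signals that support B precursors come from other liver cells, and 3 of 6 listed could be tested. Kitlg, the ligand of Kit that stroma and hepatic cells present to progenitors, fell in fasted livers in both fractions. It read 7.06, 7.20 and 7.36 in fasted total RNA, against 7.80, 7.56 and 7.80 in fed total RNA, a difference of -0.51 ± 0.10 (SE; limma adjusted p = 0.0312). On polysomes it read 7.45, 7.47 and 7.36 in fasted livers, against 7.71, 7.96 and 7.99 in fed livers, a difference of -0.46 ± 0.10 (SE; limma adjusted p = 0.0350). Fasted and fed arrays did not overlap in either fraction. Each call was lost in 6 of 25 other settings, 4 of them with 1 array left out, with adjusted p up to 0.133 in total and 0.119 in polysome RNA. Cxcl12 and Igf1 did not pass for fasting and were lower on polysomes in each diet; the Igf1 call in fasted dams was lost without fasted polysome array 2 or fasted total array 3.

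Markers of other cells were read for the same comparisons. For fasting in total RNA, none of the tested T and NK cell (3), neutrophil (12), macrophage (11), erythroid (10) and hepatocyte (10) markers passed. The shares of all genes that passed for fasting were 1.62% in total and 3.66% in polysome RNA. In polysome RNA Cd68 and C1qb of the macrophage list rose, by 0.41 ± 0.08 and 0.51 ± 0.11 (SE; limma adjusted p = 0.0215 and 0.0354). Cd4 rose too, by 0.44 ± 0.10 (SE; limma adjusted p = 0.0355), and in the rat macrophages carry it as well as T cells. The summed intensity of the 11 macrophage markers was 9862 to 11057 in fasted and 8919 to 9369 in fed total RNA, and 7458 to 7765 in fasted and 6459 to 6753 in fed polysome RNA. Between the fractions, 8 macrophage markers were lower on polysomes in fasted dams and 7 in fed dams, with 1 and 0 higher. Of the hepatocyte markers 6 and 5 were lower and 0 higher. The other lists were mixed: 4 and 5 neutrophil markers were lower and 2 higher in each diet. Of the erythroid markers 2 were lower in each diet, with 1 and 2 higher. Of the T and NK cell markers 1 and 2 were lower, with 1 and 0 higher. Over all genes 20.2% were lower in fasted and 21.8% in fed dams, and 29.5% and 28% higher. Of 14 T and NK cell markers with a probe, 11 lay under the filter. The part of macrophages in the values of the B precursor genes was not tested.

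Across the arrays, Ebf1 and Igll1 followed each other. Their Pearson correlation over the 12 arrays was 0.83, and 0.81 once each group mean was subtracted, over arrays from 6 livers. Fasted polysome array 3 held the largest deviation from a group mean for both genes, at 0.43 for Ebf1 and 0.41 for Igll1. The correlation without that array was not computed. The other 5 pairs among Ebf1, Igll1, Rag1 and Cd79b had correlations of -0.09 to 0.49, and 0.09 to 0.58 with group means subtracted. Of all tested genes, Pou2af1 was most like the mean standardised profile of the 4 genes over the 12 arrays (r = 0.83), ahead of Tbc1d5 (0.82), Adgrl1 (0.79), Pigv (0.77) and Prps1 (0.77). With group means subtracted the closest were Stk35 (0.96), Igfbp3 (0.90), Mad2l1 (0.85), Fbln5 (0.85) and Sp4 (0.85). These correlations describe 12 arrays that share livers, and the genes named are the highest of all tested genes.

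On polysomes, the liver farthest above its group mean for Ebf1, Igll1 and Lef1 was number 3 of the fasted dams. Its polysome array was above its group mean by 0.43 log2 units for Ebf1, 0.41 for Igll1, 0.41 for Lef1 and 0.19 for Pou2af1, and its total array by 0.33, 0.04, 0.19 and 0.12 for the same genes. For Cd79b these deviations were 0.04 on polysomes and -0.02 in total RNA, and for Rag1 -0.01 and 0.04. Fed liver 1 was the other high one, with total RNA above its group mean by 0.20 for Ebf1, 0.15 for Igll1, 0.15 for Lef1 and 0.23 for Pou2af1. Fed liver 2 was the lowest fed liver in total RNA, by -0.24 for Ebf1, -0.11 for Igll1, -0.19 for Lef1 and -0.20 for Pou2af1.

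**Figure D4:**
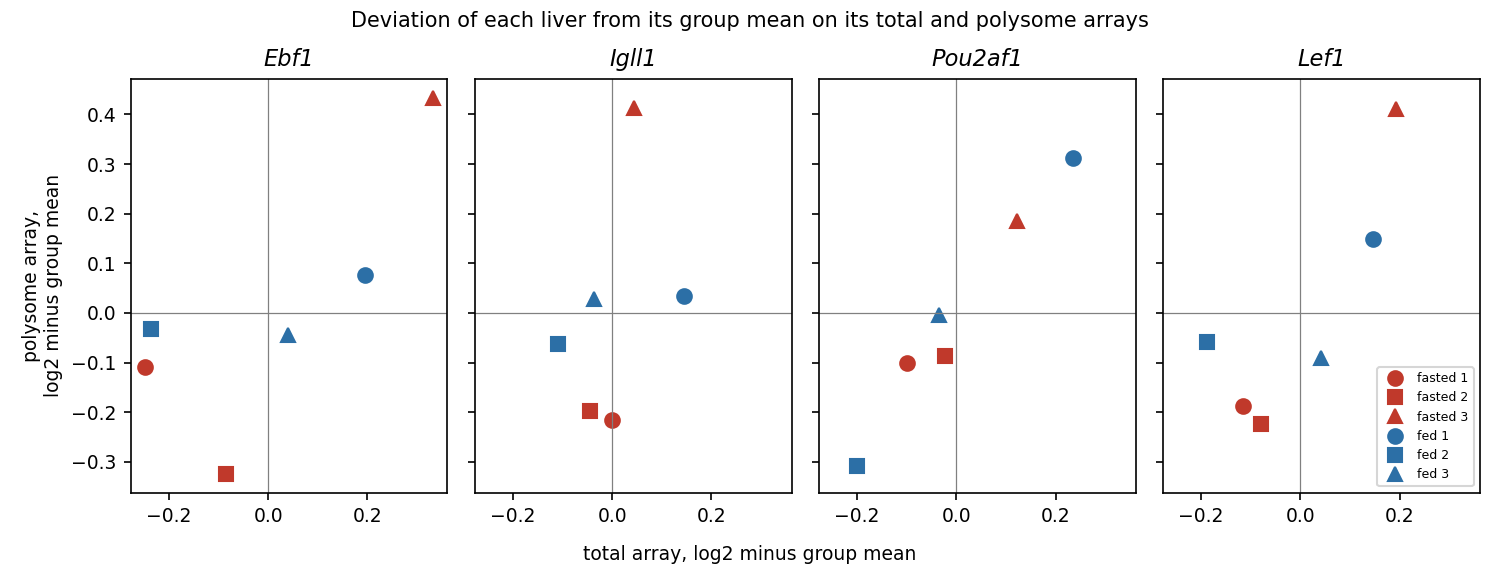
Deviation of each liver from its group mean in log2 units, on its total array (horizontal) and its polysome array (vertical), for Ebf1, Igll1, Pou2af1 and Lef1, with red for fasted and blue for fed livers and a symbol for the liver number. Fasted liver 3 lies to the upper right for each of the 4 genes, with Ebf1 at 0.33 in total and 0.43 in polysome RNA.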

How the data were processed

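Each probe has 1 intensity per array, deposited by the authors after RMA (per the submitters' processing notes). The version and the genome build behind them are not given in the sources used. The values ran from 3.62 to 21344, a linear scale, so log2(intensity + 1) was taken. Array medians lay between 101.3 and 108.3; the number of arrays, not a read depth, limits the precision.

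Of 28826 probes, the platform table listed 15515. It linked 15209 to 1 gene symbol and 306 to several, and 13311 were not listed. Names were updated by Entrez ID for 15178 probes. The Igll1 probe was linked through its accession. The brightest probe on average stood for each of 14497 genes. Genes above the 40th percentile of these means (6.87 log2) were tested, 8698 in all, and 5799 were left out.

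Each of the 4 groups had its own mean in 1 limma model over the 12 arrays (limma 3.58.1, R 4.3.3; eBayes moderation with residual df 8 and prior df 5.17), two-sided, with Benjamini-Hochberg adjustment and a threshold of 0.05. It was tested on simulated data. Figures used Python 3.11.15 and matplotlib 3.10.9. Sample groups came from the labels. The labels do not say what an array number marks. Deviations from the group mean of same-numbered total and polysome arrays of one diet correlated at 0.16 to 0.37 in 6 pairs, so these were taken as one liver, which is an inference from the data. Same-numbered fasted and fed arrays of one fraction correlated at -0.15 to 0.35 and were not paired.

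The genes and lists were chosen with earlier results of these data known. Cd24 and Plcg2 were named after their values were seen, outside the rule that follows. Named genes are the 6 listed B precursor genes, the genes of the B lineage and niche lists past the threshold, a fixed set (Vpreb1, Rag2, Dntt, Il7r, Blnk, Tcf3, Ikzf1 and an item that is not reported here), and the 5 genes most like the B precursor genes in each of 2 ways; markers of other cells are given mainly as counts. Alternatives were filters, scaling, added constants, averaging over probes, a trended robust prior, fits to just the groups compared, replicate blocks and left-out arrays; a 40th percentile over all probes was chosen after seeing the data.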

Additional observations from a re-analysis of the deposited data

How the results depend on the processing

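Results were recomputed under 26 other settings, 12 of which left out 1 array. Of 496 values for the B precursor genes, 477 kept their direction and their side of the threshold. No B precursor gene passed for fasting in either fraction, or for the difference between the fasting effects, under any setting run. The calls between polysome and total RNA were 1 in fasted dams (0 to 1 with an array left out) and 2 in fed dams (1 to 2 with an array left out). In fed dams there was 1 call with no filter, 1 with the 50th percentile filter, where Igll1 was not tested, and 1 with arrays centred on their median; there were 3 with only the arrays compared, where Ebf1 passed as well. Ebf1 and Rag1 were not tested at the 50th percentile either.

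With an array left out, values ran from -0.1365 to 0.2465 for Ebf1 between fractions in fasted dams, from -0.1135 to 0.2006 for Igll1 under fasting on polysomes, from -0.1836 to 0.1305 for Igll1 between fractions in fasted dams, from -0.2556 to 0.0314 for Rag1 under fasting in total RNA, from -0.0963 to 0.1858 for Rag1 between fractions in fed dams, from -0.2605 to 0.0048 for Cd79b under fasting in total RNA, from -0.1258 to 0.1919 for Lef1 and from -0.0485 to 0.2021 for Ikzf1 under fasting on polysomes, and from -0.0423 to 0.2083 for Ikzf1 between fractions in fed dams. The last was also -0.0423 without fed polysome 1 and fasted polysome 2. The cause of these reversals was not tested, and none of these values passed the threshold.

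Over all genes, calls for fasting were 141 in total and 318 in polysome RNA. They were 57 and 93 with no filter, 61 and 40 with only the arrays compared, 274 and 1346 without fed polysome 1 and fasted polysome 2, and 18 to 207 and 10 to 857 with an array left out (lowest without fed total 1 and without fasted polysome 3, highest without fed polysome 1 and without fasted polysome 2); the polysome count was 205 with the 30th percentile filter and 205 with the percentile taken over all probes. The difference between fasting effects gave 0 calls, and 3 without that pair. With the replicate block by liver (consensus correlation 0.2473) fasting calls were 156 and 331, and with the number as a fixed replicate block 148 and 421; no call of a B precursor gene changed under either block, and among the other named genes Ikzf1 between fractions in fasted dams gained a call with the block by liver.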
